A study of Sus scrofa with 63 samples.

Results

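MARCO, C1QA, C1QC, FCER1G, TYROBP and FOLR2 are 6 genes that are used as markers of macrophages and of Kupffer cells, the resident macrophages of the liver. They were chosen by name, and every probe-set annotated to 1 of them was taken, which gave 7 probe-sets for 6 of the 6765 genes that carry a single symbol on the porcine array. MARCO has 2 probe-sets and each of the others has 1. Liver RNA was measured on 63 Affymetrix arrays, 1 per animal, in German Landrace offspring at 94 days post conception (94 dpc, fetuses, n = 16) and at 1, 28 and 188 days post natum (1 dpn, n = 16, 28 dpn, n = 15, and 188 dpn, n = 16). The dams of all these animals had received a high protein diet (HP) with 30% crude protein during gestation, so each comparison is one of age within HP offspring, and offspring on the adequate protein diet were not analysed here. The fetuses came from other sows than the piglets. At 94 dpc and 1 dpn the lightest and the heaviest siblings were taken, and only the animals of 28 dpn and 188 dpn were described as fasted overnight. The way of killing differed between 94 dpc, 1 dpn and the later stages as well, so that age cannot be told apart from these differences. The study chose 8 sib pairs per stage, the labels do not name the pairs, and p-values therefore treat siblings as independent animals.

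Macrophages clear particles, dying cells and immune complexes, and in the liver they line the sinusoids where they meet bacteria and worn red cells from the portal blood. MARCO is a scavenger receptor with a collagen-like stalk that binds bacteria and particles. C1QA and C1QC encode 2 of the 3 chains of C1q, which starts the classical pathway of complement and, unlike most complement proteins, is made mainly by macrophages. FCER1G (the Fc receptor gamma chain) and TYROBP (DAP12) are small membrane adaptors with an ITAM motif, which pass signals from many activating receptors to the kinase SYK, and they are also found in natural killer cells and other myeloid cells. FOLR2 is folate receptor beta, which in human and mouse tissues marks a class of resident macrophages. In the RefSeq table of the assembly Sscrofa11.1 C1QA, C1QC and C1QB are adjacent genes, TYROBP lies beside HCST, which encodes the related adaptor DAP10, and FOLR2 follows a FOLR1 gene. The table was used for names and order only, and C1QB was not matched on the array.

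Values are log2 signals that the authors had scaled to a common trimmed mean. As background of an array serves the 95th percentile of its 23 no-target controls, which averaged 6.10, 5.83, 5.65 and 5.64 at 94 dpc, 1 dpn, 28 dpn and 188 dpn. Precision was limited by how many arrays a stage has and by how far a signal lay above background. Other array measures moved with age. The array median was 7.38, 7.23, 6.83 and 6.72 in the same order, and the 3′ signal of RNAs added before labelling exceeded their 5′ signal by 0.86, 1.89, 2.70 and 2.10. The same difference for actin, which was already in the sample, was 2.44, 1.59, 3.66 and 4.10. The part of actin's difference in the changes was not tested, and that of the other measures only in the alternatives of the closing section. Of the hepatocyte list, which holds ALB and APOA1, all 12 genes passed the filter on level in each period.

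Array 6 of the fetal stage stood apart in all 6 markers. MARCO had a log2 signal of 1.98 on array 6, against 7.78 to 9.65 on the other 15 arrays of 94 dpc. C1QC had 8.57 on array 6, against 12.04 to 13.49, and C1QA had 7.42, against 10.03 to 11.80. The signals of FCER1G (5.53), TYROBP (4.69) and MARCO on array 6 were under its background of 6.27, so these 3 markers were not detected there. The median difference of the 6 markers from the mean of the other arrays was −3.63. FOLR2 differed least, with 7.35 on array 6, against 8.21 to 9.16 on the others.

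Other cell types moved with the markers on array 6. Among genes above background on most of the other arrays, array 6 was the lowest in 10 of 14 genes of the macrophage list, in 7 of 7 of the neutrophil list, in 6 of 8 of the sinusoidal endothelium list and in 3 of 8 of the red cell precursor list. It was the lowest in 0 of 12 hepatocyte genes, whose median difference was 0.23. Over all 12751 probe-sets that were above background in this sense 24.5% were lowest on array 6 and 23.9% were highest. The median correlation of array 6 with the other arrays of its stage was 0.854, against 0.884 to 0.894 for the others, and the 3′ minus 5′ difference of actin was 4.30, against 1.84 to 2.97. Its array median, its background and its added RNAs lay within the range of the other arrays. What share the composition of the sample and the quality of its RNA had in these values was not tested. The differences of the 6 markers from 94 dpc are given with and without array 6. So are those counts of called genes in period I that are printed below and that moved. Period I counts of some lists are not printed, and some of these moved too. The lowest, median and highest signals of 94 dpc below include array 6.

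**Figure D1:**
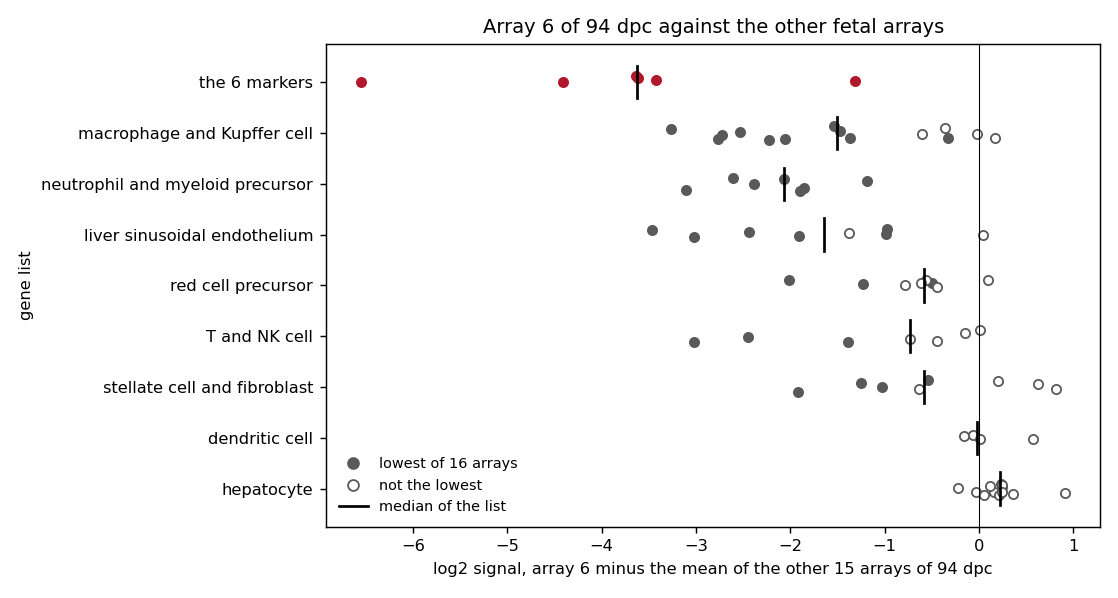
Difference in log2 signal between array 6 of 94 dpc and the mean of the other 15 arrays of that stage (x axis) for single genes of 9 lists (y axis), with filled points where array 6 was the lowest of the 16 arrays and a bar at the median of each list. All 6 markers are filled and lie at −1.31 or below, with MARCO at −6.55, and none of the 12 hepatocyte genes is filled.

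Taken over the 4 stages, the 6 markers fell into 3 patterns. C1QA, C1QC, FCER1G and TYROBP rose between 1 dpn and 28 dpn and fell from there to 188 dpn. FOLR2 rose in each period, by 69.2-fold between 94 dpc and 188 dpn, or 65.4-fold without array 6. MARCO did not pass the test in the first 2 periods and was near background in adult livers. In bulk liver RNA the number of macrophages, the RNA per macrophage and signal from other cell types cannot be told apart. Calls rest on limma's moderated test, with p-values adjusted by Benjamini-Hochberg over all probe-sets tested in the period and a threshold of 0.05, and a difference is always the later minus the earlier stage on the log2 scale, with its standard error (SE).

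**Figure D2:**
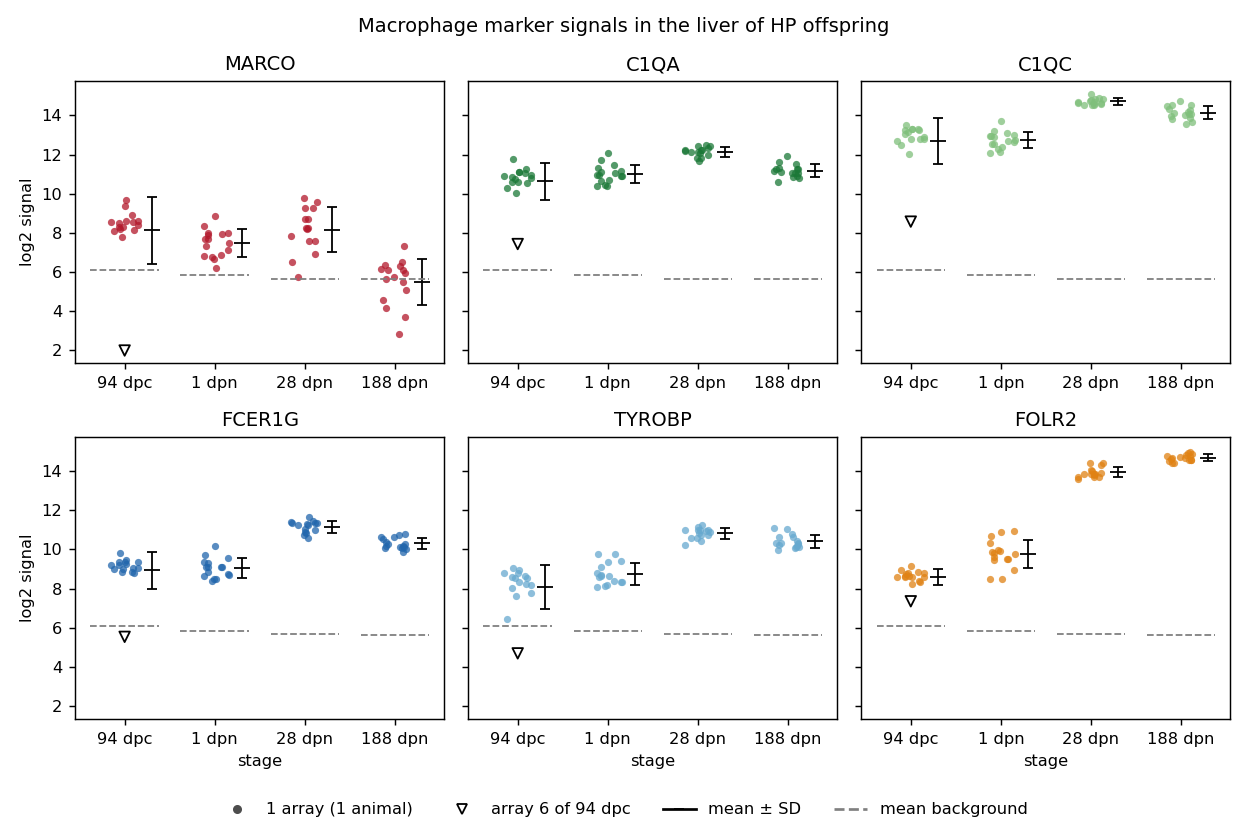
Log2 signal (y axis) of the 6 markers on each array at the 4 stages (x axis), with the mean ± SD beside the points, the mean background as a dashed line and array 6 of 94 dpc as an open triangle. C1QC, FCER1G, TYROBP and FOLR2 of 28 dpn lie above all points of 1 dpn, the FOLR2 points of 188 dpn lie between 14.41 and 14.97, and MARCO of 188 dpn lies about the background.

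MARCO, the scavenger receptor, had the highest SD of the 6 markers at 28 dpn and 188 dpn, but not at 1 dpn, and at 94 dpc only with array 6 (without it 0.48, beside 0.66 for TYROBP). Its main probe-set had a lowest, median and highest log2 signal of 1.98, 8.46 and 9.65 at 94 dpc, and of 6.21, 7.57 and 8.83 at 1 dpn. At 28 dpn the 3 values were 5.76, 8.25 and 9.76, and at 188 dpn they were 2.81, 5.85 and 7.33. The arrays of all adjacent stages overlapped. It was above background on 15 of 16, 16 of 16, 15 of 15 and 9 of 16 arrays, so the size of any change against 188 dpn is not exact.

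In period I, between 94 dpc and 1 dpn, MARCO averaged 7.48 ± 0.70 at 1 dpn and 8.12 ± 1.70 at 94 dpc (SD, n = 16 each), and the difference of −0.64 (SE 0.44) did not pass the test (adjusted p = 0.208). Array 6 decided this call. Without it the difference was −1.05 (SE 0.21, adjusted p = 6.55e-05), and 10 of 16 arrays of 1 dpn lay below the lowest remaining fetal array. In period II, between 1 dpn and 28 dpn, MARCO averaged 8.15 ± 1.15 at 28 dpn (n = 15) and 7.48 at 1 dpn, a difference of 0.67 (SE 0.32) that did not pass the test (adjusted p = 0.0618). This value lay close to the threshold, and it passed after each of 5 single arrays was left out, replicates 15 and 16 of 1 dpn and replicates 8, 10 and 12 of 28 dpn, with adjusted p between 0.0113 and 0.0464.

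In period III, between 28 dpn and 188 dpn, MARCO fell by 2.65 (SE 0.40, adjusted p = 2.75e-06), to 5.50 ± 1.18 at 188 dpn, against 8.15 at 28 dpn. This was place 14 of 12418 probe-sets by size of decrease, and 8 of 16 arrays of 188 dpn lay below the lowest array of 28 dpn. The second probe-set of MARCO was closer to background. It averaged 6.94, 6.20, 5.16 and 5.67 over the 4 stages, was above background on 14 of 16, 12 of 16, 7 of 15 and 9 of 16 arrays, and did not reach the level needed for testing. Without that filter its differences were −0.74, −1.04 and 0.52 in the 3 periods, and none passed the test (adjusted p = 0.120, 0.0715 and 0.546), so that the probe-sets disagreed in sign in periods II and III.

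C1QA and C1QC, the chains of C1q, moved in the same direction in periods II and III but not by the same amount. C1QA had a lowest, median and highest signal of 7.42, 10.82 and 11.80 at 94 dpc, of 10.38, 10.96 and 12.06 at 1 dpn, of 11.66, 12.18 and 12.50 at 28 dpn and of 10.61, 11.15 and 11.91 at 188 dpn. C1QC had 8.57, 12.97 and 13.49 at 94 dpc, 12.08, 12.71 and 13.72 at 1 dpn, 14.53, 14.66 and 15.10 at 28 dpn and 13.55, 14.11 and 14.76 at 188 dpn. Both were above background on all 63 arrays, and the stages of C1QA overlapped throughout, whereas every array of 28 dpn lay above every array of 1 dpn in C1QC. C1QA differed by 0.38 (SE 0.25) in period I and C1QC by 0.04 (SE 0.29), and neither passed the test (adjusted p = 0.200 and 0.920). Without array 6 these differences were 0.17 and −0.24 (adjusted p = 0.371 and 0.160).

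In period II C1QA rose by 1.14 (SE 0.13, adjusted p = 6.90e-09), to 12.15 ± 0.25 at 28 dpn (SD, n = 15), against 11.01 ± 0.47 at 1 dpn (n = 16). C1QC rose by 1.97 (SE 0.12, adjusted p = 2.40e-15), to 14.71 ± 0.16 at 28 dpn, against 12.74 ± 0.43 at 1 dpn, which is 3.92-fold. In period III both fell, C1QA by 0.98 (SE 0.11, adjusted p = 1.17e-08), to 11.17 ± 0.33 at 188 dpn (n = 16), and C1QC by 0.57 (SE 0.10, adjusted p = 2.33e-05), to 14.14 ± 0.33. In C1QA 15 of 16 arrays of 188 dpn lay below the lowest array of 28 dpn, and in C1QC 13 of 16 did.

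FCER1G and TYROBP, the ITAM adaptors, rose by about the same amount in period II, and FCER1G fell further in period III. FCER1G had a lowest, median and highest signal of 5.53, 9.12 and 9.80 at 94 dpc, of 8.37, 9.10 and 10.18 at 1 dpn, of 10.56, 11.27 and 11.65 at 28 dpn and of 9.88, 10.23 and 10.77 at 188 dpn. TYROBP had 4.69, 8.43 and 9.03 at 94 dpc, 8.08, 8.63 and 9.76 at 1 dpn, 10.25, 10.91 and 11.24 at 28 dpn and 9.99, 10.33 and 11.10 at 188 dpn. In both the 15 arrays of 28 dpn lay above the 16 arrays of 1 dpn, and the stages of periods I and III overlapped. Each was above background on 15 of 16 fetal arrays and on all later arrays.

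In period I FCER1G differed by 0.11 (SE 0.25, adjusted p = 0.739), and by −0.12 without array 6 (adjusted p = 0.477), and TYROBP rose by 0.69 (SE 0.29, adjusted p = 0.0468), to 8.76 ± 0.56 at 1 dpn, against 8.08 ± 1.11 at 94 dpc (SD, n = 16 each). The call for TYROBP is a narrow one. Without array 6 its difference was 0.46 (SE 0.21, adjusted p = 0.0615), and 17 of the 32 fits that left out 1 array gave an adjusted p of 0.05 or more. In period II FCER1G rose by 2.11 (SE 0.15, adjusted p = 6.01e-14), to 11.17 ± 0.30 at 28 dpn (n = 15), against 9.05 ± 0.49 at 1 dpn (n = 16), and TYROBP rose by 2.06 (SE 0.16, adjusted p = 4.69e-13), to 10.82 ± 0.27 at 28 dpn. In period III FCER1G fell by 0.86 (SE 0.10, adjusted p = 9.43e-08), to 10.31 ± 0.27 at 188 dpn (n = 16), and TYROBP fell by 0.40 (SE 0.11, adjusted p = 0.00423), to 10.42 ± 0.33. The fall of TYROBP did not pass with all 63 arrays in a single fit (adjusted p = 0.189) or after each array was centred on its median (−0.30, adjusted p = 0.0537).

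FOLR2, the folate receptor, did not follow the other markers. Its probe-set had a lowest, median and highest signal of 7.35, 8.63 and 9.16 at 94 dpc, of 8.50, 9.82 and 10.93 at 1 dpn, of 13.61, 13.87 and 14.44 at 28 dpn and of 14.41, 14.70 and 14.97 at 188 dpn. It was above background on all 63 arrays. FOLR2 rose by 1.19 (SE 0.20, adjusted p = 5.84e-06) in period I, to 9.77 ± 0.73 at 1 dpn, against 8.58 ± 0.40 at 94 dpc (SD, n = 16 each), and the difference was 1.11 without array 6 (adjusted p = 8.61e-06). It was higher than the highest fetal array on 13 of 16 arrays of 1 dpn.

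In period II FOLR2 rose by 4.17 (SE 0.19, adjusted p = 3.39e-18), to 13.94 ± 0.26 at 28 dpn (n = 15), against 9.77 at 1 dpn, which is 18.0-fold and place 20 of 13078 probe-sets by size of increase. In period III, when the other 5 markers fell, it rose by a further 0.75 (SE 0.08, adjusted p = 1.92e-08), to 14.69 ± 0.17 at 188 dpn (n = 16), and 14 of 16 arrays lay above the highest array of 28 dpn. The relative FOLR1, which binds the same vitamin, rose by 1.06 (SE 0.22, adjusted p = 0.000120) in period I and, in period II, by 1.73 (SE 0.14, adjusted p = 1.61e-12), and it fell by 0.64 (SE 0.17, adjusted p = 0.00411) in period III. The rise of FOLR1 in period I includes array 6, where it had 7.63, against 10.33 to 11.06 on the other fetal arrays. Its mean was 11.61 at 1 dpn, against 10.74 on those other fetal arrays. Whether probes of FOLR2 also bind FOLR1 transcripts was not tested.

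In period I 2 of the 6 markers were called, both higher (TYROBP and FOLR2), where 56.9% of the 12839 probe-sets tested were called (22.9% higher and 34.0% lower, or 28.4% and 27.4% after each array was centred on the median of the probe-sets tested). The stages of period I overlapped in all 6, and over all probe-sets 1.85% were higher and 3.20% lower without overlap. Without array 6 FOLR2 was called higher and MARCO lower, where 57.6% of 12762 probe-sets were called (23.0% higher and 34.5% lower). In period II 5 of the 6 rose, against 71.7% of 13078 probe-sets called (28.8% higher and 42.9% lower, or 39.5% and 32.8% after centring). In 4 of them the stages did not overlap, against 4.95% of probe-sets that were higher and 6.74% that were lower without overlap. In period III 5 of the 6 fell and 1 rose, against 34.7% of 12418 probe-sets called (12.3% higher and 22.5% lower, or 19.1% and 14.9% after centring). The stages overlapped in all 6, and over all probe-sets 0.395% were higher and 0.862% lower without overlap. The median difference of the 6 markers was 0.24, 2.02 and −0.71 in the 3 periods, beside −0.027, −0.015 and −0.083 over all genes with a symbol. Without array 6 the median of the 6 markers in period I was 0.023, beside −0.034 over all genes.

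**Figure D3:**
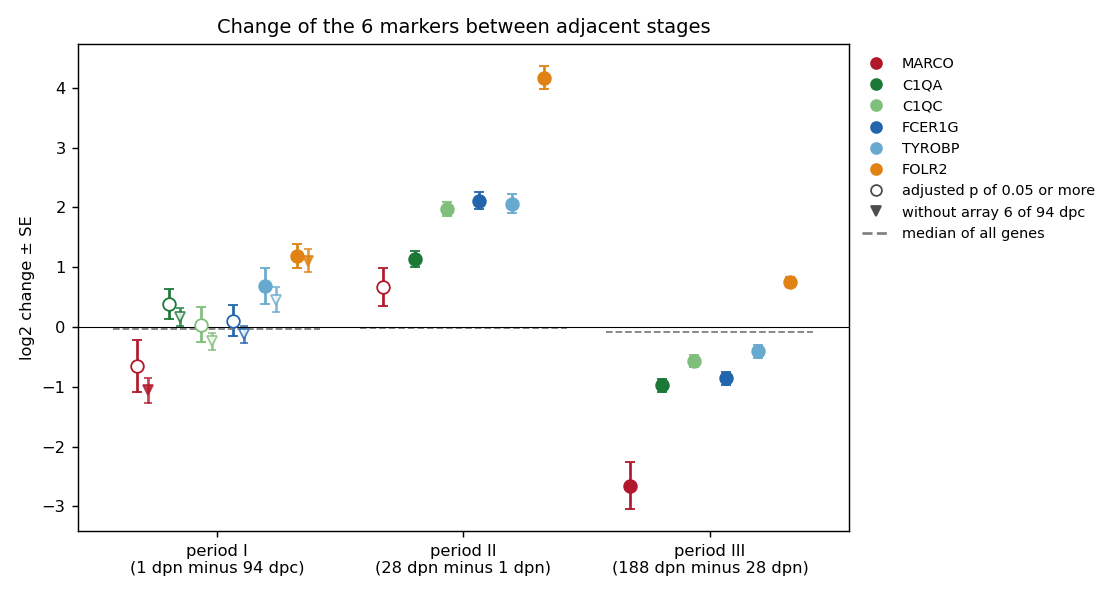
Log2 change ± SE (y axis) of the 6 markers in periods I, II and III (x axis), each the later minus the earlier stage, with open symbols where the adjusted p was 0.05 or more, triangles for the fit without array 6 of 94 dpc and a dashed line at the median of all genes. In period II FOLR2 (4.17) lies above C1QC, FCER1G and TYROBP (1.97 to 2.11), and in period III only FOLR2 (0.75) lies above 0 while MARCO (−2.65) is the lowest.

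Whether markers moved by the same amount was tested on the difference between 2 markers on each array, with a two-sided permutation test for each of the 15 pairs in each period and adjustment over these 45 tests. The amounts are changes of probe-set signal. Whether 2 probe-sets respond alike to the same change of transcript was not tested. In period II the changes of C1QC, FCER1G and TYROBP were not distinguishable, with differences of −0.14 (SE 0.11) for C1QC minus FCER1G, −0.09 (SE 0.13) for C1QC minus TYROBP and 0.05 (SE 0.12) for FCER1G minus TYROBP (adjusted p = 0.217, 0.515 and 0.686). C1QA rose less than each of these, by 0.83 (SE 0.06) less than its partner chain C1QC (adjusted p = 3.21e-05). FOLR2 rose more than every other marker, by 2.06 to 3.50, and MARCO could not be told from C1QA (difference −0.47, SE 0.32, adjusted p = 0.169). In period III C1QA and FCER1G were not distinguishable (−0.12, SE 0.10, adjusted p = 0.271), nor were C1QC and TYROBP (−0.17, SE 0.10, adjusted p = 0.139). MARCO fell by 1.67 to 2.25 more than C1QA, C1QC, FCER1G and TYROBP, and FOLR2 differed from all 5 others (adjusted p of at most 3.21e-05).

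In period I 12 of the 15 pairs differed, among them MARCO with each of the other 5. The pairs C1QC and FCER1G (−0.07, SE 0.13), C1QA and TYROBP (−0.30, SE 0.17) and TYROBP and FOLR2 (−0.51, SE 0.28) were not distinguishable (adjusted p = 0.608, 0.101 and 0.0961). Without array 6 the pair TYROBP and FOLR2 differed as well (−0.65, adjusted p = 0.0173).

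Over the whole span from the fetus to the adult the 6 markers ended at different places. Between 94 dpc and 188 dpn FOLR2 rose by 6.11 (SE 0.11, adjusted p = 3.47e-31), TYROBP by 2.34 (SE 0.28, adjusted p = 2.88e-09), C1QC by 1.44 (SE 0.29, adjusted p = 3.55e-05) and FCER1G by 1.36 (SE 0.24, adjusted p = 4.01e-06), and in these 4 the stages did not overlap. Without array 6 the rises were 6.03, 2.12, 1.17 and 1.14 in the same order (adjusted p of at most 7.90e-10). C1QA rose by 0.54 (SE 0.24, adjusted p = 0.0392), to 11.17 at 188 dpn, against 10.63 at 94 dpc, and by 0.33 without array 6 (adjusted p = 0.0250). Its call was lost without a filter on level (adjusted p = 0.0563) and after quantile normalization (adjusted p = 0.0914). MARCO fell by 2.63 (SE 0.49, adjusted p = 1.31e-05), and the difference was −3.03 without array 6 (adjusted p = 1.85e-10), when the stages no longer overlapped. Over all 13377 probe-sets 80.1% were called (27.0% higher and 53.1% lower, or 42% and 36.4% after centring), and 7.80% were higher and 16.1% lower without overlap. Without array 6 80.7% were called (27.2% higher and 53.5% lower). The second probe-set of MARCO also fell, by 1.27 without the filter on level (adjusted p = 0.00261).

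Set against 1 dpn, C1QA of adult livers differed by 0.16 (SE 0.14, adjusted p = 0.302), which passed after each array was centred on its median (0.50, adjusted p = 0.00210). TYROBP was higher by 1.66 (SE 0.16), C1QC by 1.40 (SE 0.14), FCER1G by 1.26 (SE 0.14) and FOLR2 by 4.92 (SE 0.18) at 188 dpn (adjusted p of at most 1.30e-09), and MARCO was lower by 1.98 (SE 0.33, adjusted p = 2.05e-06). The stages did not overlap in TYROBP and FOLR2. Over all 13248 probe-sets 73.6% were called (27.6% higher and 46.1% lower, or 41.3% and 33.2% after centring), and 5.00% were higher and 8.97% lower without overlap. These comparisons share arrays with those of the adjacent periods and are not independent of them.

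Other genes of macrophages were taken from a list of 28, of which 16 were on the array under their symbol, among them CD163, CD14, MRC1, VSIG4, CD5L and CTSS, each above background on all 63 arrays. In period II 9 of 15 tested genes rose and 2 fell, with a median of 0.67. Over all probe-sets tested 22.9% were called higher and 34.0% lower in period I. The shares were 28.8% and 42.9% in period II and 12.3% and 22.5% in period III. Counts of this list and of the later lists are to be read beside these shares. SIGLEC1, the sialic acid receptor of resident macrophages, rose by 3.98 (SE 0.39, adjusted p = 1.74e-10), with 14 of 15 arrays of 28 dpn and 0 of 16 arrays of 1 dpn above background, so that this size is not exact. LAPTM5, a lysosomal protein of blood cells, rose by 1.95 (SE 0.15), VSIG4, the complement receptor of Kupffer cells, by 1.89 (SE 0.10) and AIF1, an actin-binding protein, by 1.76 (SE 0.17), with adjusted p of at most 8.04e-11. MRC1, the mannose receptor, fell by 0.77 (SE 0.14, adjusted p = 1.59e-05), and SLC11A1, a metal transporter of phagosomes, fell by 0.47 (SE 0.18, adjusted p = 0.0199).

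In period III 9 of 15 fell and 3 rose, with a median of −0.51. The largest falls were those of SIGLEC1 (−2.06, SE 0.45, adjusted p = 0.000544), which was above background on 7 of 16 arrays of 188 dpn, so that its size is not exact, CD86, a costimulatory ligand (−1.03, SE 0.21, adjusted p = 0.000182), CD163, the haptoglobin-hemoglobin receptor (−0.97, SE 0.16, adjusted p = 1.11e-05), and AIF1 (−0.82, SE 0.11, adjusted p = 5.31e-07). HMOX1, LGMN and CD5L rose, by 0.28 to 0.36. In period I 6 of 14 rose and 1 fell, with a median of 0.44, led by CD14 (1.58, SE 0.16), CD163 (1.46, SE 0.22), the transcription factor SPI1 (1.37, SE 0.17) and SLC11A1 (1.08, SE 0.14), all with an adjusted p of at most 1.26e-06. None of these 4 genes rose in period II, when C1QA, C1QC, FCER1G and TYROBP did. CD5L (1.02) and HMOX1 (0.80), which rose in period I as well, rose again in period II. These second rises were 0.49 (SE 0.12, adjusted p = 0.000385) and 0.67 (SE 0.13, adjusted p = 4.88e-05). Without array 6, period I had 6 genes that rose and 2 that fell, with a median of 0.29.

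**Figure D4:**
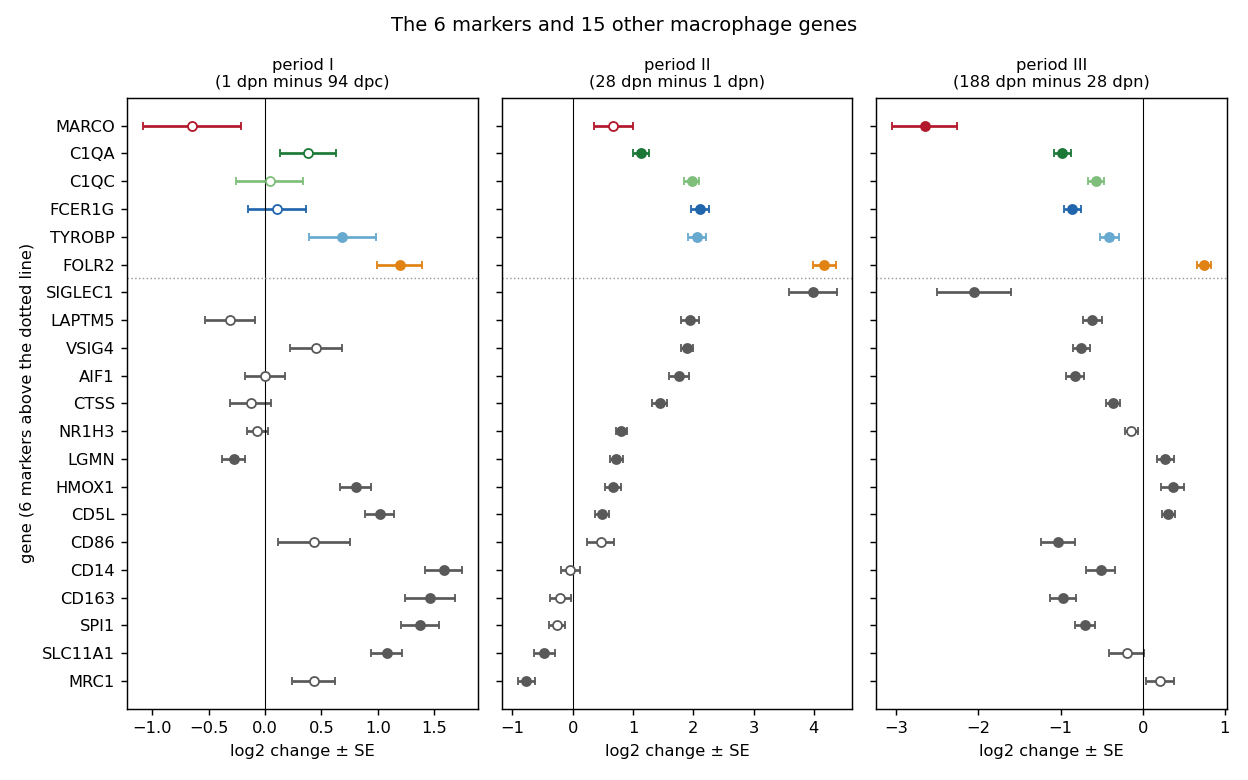
Log2 change ± SE (x axes) of the 6 markers and of 15 other macrophage genes (y axis) in periods I, II and III, each the later minus the earlier stage, with open symbols where the adjusted p was 0.05 or more. The other genes are ordered by their change in period II, from SIGLEC1 (3.98) to MRC1 (−0.77), and the genes at the foot of that order include CD14, CD163 and SPI1, which rose by 1.37 to 1.58 in period I. CD5L and HMOX1 rose in both of these periods.

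Genes that work with the markers were described in the same way. Of the complement list 11 of 15 genes rose and 3 fell in period II, with a median of 1.52, and these included C1R and C1S, the proteases that bind C1q, of which C1R rose by 1.52 (SE 0.17, adjusted p = 1.66e-09). The largest rises in period II were those of CFP (properdin, 2.59, SE 0.17), C4BPA (2.04, SE 0.14), C2 (1.81, SE 0.19) and ITGB2 (1.71, SE 0.18), with adjusted p of at most 6.45e-10. C1R and C1S had already risen in period I, by 2.07 (SE 0.25, adjusted p = 2.14e-08) and 1.45 (SE 0.25, adjusted p = 9.29e-06), when C1QA and C1QC did not pass the test, and C4A rose by 3.25 (SE 0.23, adjusted p = 8.10e-14) there. In period I 7 of 16 rose and 3 fell, or 6 and 5 without array 6, with a median of 0.0037, or −0.094 without it. C1R, C1S and C4A rose in that fit as well (2.00, 1.38 and 3.25). In period III 2 of 15 rose and 3 fell, those that fell being CFP (−1.07), ITGB2 (−1.02) and CALR (−0.77).

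Of the receptors that signal through FCER1G or TYROBP, 4 of 19 listed genes were on the array and only FCGR3A, the low affinity IgG receptor, was tested. In period II it rose by 2.30 (SE 0.16, adjusted p = 8.43e-14), and it fell by 0.64 (SE 0.13, adjusted p = 0.000164) in period III, and in period I it did not pass the test with array 6 (0.09, adjusted p = 0.772) or without it (−0.09, adjusted p = 0.680). Of the listed kinases and adaptors of ITAM signalling 7 of 9 rose and 0 fell in period II, and 5 of 9 fell and 1, CD247, rose in period III. The largest rises in period II were those of CD247 (1.79, SE 0.27), the T cell receptor zeta chain, and VAV1 (1.63, SE 0.11), with adjusted p of at most 8.79e-07. CD247 is also counted in the list of T and natural killer cell genes. In period II HCST, the gene beside TYROBP, rose by 0.79 (SE 0.12, adjusted p = 1.27e-06), and it differed by 0.03 (SE 0.12, adjusted p = 0.859) in period III, and it fell by 0.38 (SE 0.12, adjusted p = 0.00732) in period I.

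Of the other scavenger receptors 5 of 5 tested genes fell in period III, as MARCO did, with a median of −0.53 and the largest fall in SCARA5, a ferritin receptor (−1.32, SE 0.22, adjusted p = 1.76e-05). In period I 4 of 6 rose and 1 fell, or 4 and 2 without array 6. SCARA5 rose by 3.49 (SE 0.48, adjusted p = 1.70e-07) there, with 16 of 16 arrays of 1 dpn and 9 of 16 arrays of 94 dpc above background, so that this size is not exact. Of the folate list 4 of 10 rose and 2 fell in period II, where 28.8% of all probe-sets tested rose and 42.9% fell. Its largest change was the fall of TYMS (−1.93, SE 0.31, adjusted p = 1.43e-06), and MTR fell by 0.83 (SE 0.23, adjusted p = 0.00210). FOLR1 had the largest rise. The folate enzymes SHMT1 and ALDH1L1 rose by 1.37 (SE 0.14) and 1.02 (SE 0.15) in period II (adjusted p of at most 5.95e-07). In period III these 2 genes rose further, like FOLR2, by 1.31 (SE 0.10) and 1.17 (SE 0.09), with adjusted p of at most 5.95e-07. Of growth factors and regulators of macrophages 5 of 12 rose and 2 fell in period II. Over all probe-sets 28.8% rose and 42.9% fell there, or 39.5% and 32.8% after centring. IRF8, a transcription factor of the myeloid lineage, was at 2.34 (SE 0.15, adjusted p = 1.00e-14) and RBPJ, the effector of Notch, at −2.31 (SE 0.28, adjusted p = 9.71e-09).

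Markers of other cell types moved with age as well, and their part in the changes of the 6 markers was not tested. Of T and natural killer cell genes 7 of 8 tested rose and 0 fell in period II, with a median of 1.92. Of this list only CD8B and CCL5 were tested in period I. The others therefore passed the filter on level in period II through 28 dpn alone, so that this count was partly set by the filter. The summed linear signal of the list ranged from 2393 to 5866 at 28 dpn, against 685 to 1700 at 1 dpn. GNLY, a granule protein of killer cells, exceeded background on 15 of 15 arrays of 28 dpn and 0 of 16 arrays of 1 dpn. In period III 3 of these 8 fell and 1, CD247, rose. The 4 monocyte genes on the array had a summed signal of 1503 to 9133 at 28 dpn, against 274 to 1236 at 1 dpn, and in period II PLAC8, the one tested, rose by 3.16 (SE 0.27, adjusted p = 1.08e-11). Of the B and plasma cell list 2 genes were tested in periods II and III and none in period I, and both rose each time. Both therefore passed the filter on level in period II through 28 dpn alone, so that the count of period II was partly set by the filter. In period II JCHAIN, the joining chain of antibodies, rose by 2.73 (SE 0.23, adjusted p = 3.73e-12), and in period III by 1.17 (SE 0.19, adjusted p = 9.36e-06). IGHG, an antibody heavy chain, had rises of 5.31 (SE 0.49, adjusted p = 4.18e-11) and 1.58 (SE 0.36, adjusted p = 0.000782) in these periods, the first of a size that is not exact, with 2 of 16 arrays of 1 dpn above background. The summed signal of the list was 562 to 6686 at 28 dpn, against 34.0 to 485 at 1 dpn, and it was 1628 to 8921 at 188 dpn.

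Neutrophil and myeloid precursor genes fell in 7 of 7 in period I, with a median of −1.53, or −1.72 without array 6, and their summed signal was 649 to 4921 at 1 dpn, against 1278 to 15193 at 94 dpc. Red cell precursor genes also fell in 7 of 7, with a median of −2.78, or −2.83 without array 6. S100A12, ELANE, PRTN3 and PGLYRP1 of the neutrophil list and KLF1, RHCE and TFRC of the red cell list were not tested in period II. They therefore passed the filter on level in period I through 94 dpc alone, so that both counts were partly set by the filter. Sinusoidal endothelium genes fell in 5 of 8 and rose in 2 in period II. KDR (−1.76, SE 0.29) and FLT1 (−1.71, SE 0.27) fell most, with adjusted p of at most 2.39e-06. Each was above background on 10 of 15 arrays of 28 dpn, so that these sizes are not exact. Neither was tested in period III, so both passed the filter in period II through 1 dpn alone. The 2 that rose were CDH5, the cadherin of endothelial junctions, by 1.58 (SE 0.12, adjusted p = 2.71e-13), and PECAM1 by 0.54 (SE 0.09, adjusted p = 2.16e-06). Of 12 hepatocyte genes 2 rose and 7 fell in period II, with a median of −0.20, and 0 rose and 1 fell in period III. The summed signal of the 6 markers was 46015 to 62816 at 28 dpn, against 6853 to 21940 at 1 dpn, and it was 41542 to 62907 at 188 dpn. This sum mostly reflects C1QC and FOLR2, whose median linear signals at 28 dpn were 25918 and 15004. The next was C1QA with 4640, and MARCO had 305.

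Whether the markers varied together among animals of the same stage was examined pair by pair. For each of the 15 pairs at each stage Pearson's r and Spearman's coefficient were computed over the arrays of that stage, with a permutation test and adjustment over these 60 relations. Of the 60, 29 passed by Pearson's r and 15 by Spearman's coefficient. By Pearson's r 11 pairs passed in fetuses, 12 pairs at 1 dpn and 3 pairs in each of the older stages, and the median r was 0.88, 0.68, 0.35 and 0.12 in order of age. Spearman's coefficient passed in 1, 9, 2 and 3 pairs in that order. Most of the fetal relations by Pearson's r rested on array 6. Without it 1 pair passed at 94 dpc and the median r was 0.22, so that 19 of 60 passed in all and 1 dpn had 12 of them. The difference between stages was not tested. When the 2 arrays farthest from the median of the first marker were left out, 10 of 60 passed, with 1, 6, 1 and 2 pairs in order of age.

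C1QA and C1QC were the only pair to pass at all 4 stages. Their r was 0.97, 0.97, 0.66 and 0.75 and their Spearman coefficient 0.85, 0.95, 0.68 and 0.69 (permutation test, adjusted p for r = 3.00e-04, 3.00e-04, 0.0225 and 0.00520, and for the Spearman coefficient 0.00100, 6.00e-04, 0.0290 and 0.0211). Without array 6 r was 0.86 at 94 dpc (adjusted p = 0.00180), and without the 2 farthest arrays it was 0.87, 0.94, 0.73 and 0.69. Among 13840 probe-sets C1QC was in place 1 by its r with C1QA at 1 dpn, in place 3 at 94 dpc with array 6 included, in place 120 at 28 dpn and in place 2 at 188 dpn.

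At 1 dpn the 4 markers C1QA, C1QC, FCER1G and TYROBP correlated with each other and with MARCO, with r between 0.62 and 0.97 in all 10 pairs (permutation test, adjusted p between 3.00e-04 and 0.0253), and MARCO and FCER1G had an r of 0.83 and a Spearman coefficient of 0.87. Array 31 (replicate 15) was the highest of the 16 arrays of 1 dpn in MARCO, C1QA, C1QC and FCER1G. Without the 2 farthest arrays the r of MARCO and FCER1G was 0.73 and still passed. No longer passing were C1QA with TYROBP (0.60), and MARCO with C1QA (0.46) and C1QC (0.61). Nor did C1QC pass with TYROBP (0.51) or FCER1G (0.67), with adjusted p between 0.0501 and 0.251 for these pairs (permutation test). With all arrays MARCO and C1QA did not pass by Spearman's coefficient (0.59, adjusted p = 0.0628, permutation test). At 28 dpn C1QA and FCER1G had an r of 0.74 (Spearman 0.70, adjusted p = 0.00780 and 0.0270, permutation test), which was 0.64 and did not pass without the 2 farthest arrays, and MARCO passed with C1QC only (r = 0.61, adjusted p = 0.0337, Spearman 0.61, adjusted p = 0.0628). At 188 dpn FCER1G passed with TYROBP (r = 0.69, adjusted p = 0.0132, Spearman 0.76, adjusted p = 0.00951, r = 0.80 without the 2 farthest) and with C1QC (r = 0.64, adjusted p = 0.0223, Spearman 0.62, adjusted p = 0.0455, r = 0.60 and no longer passing without the 2 farthest, permutation test).

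No relation of FOLR2 passed at the 2 older stages. Its r with the other 5 lay between −0.41 and 0.36 at 28 dpn and between −0.17 and 0.30 at 188 dpn, and none passed (permutation test, adjusted p of 0.184 or more). At 1 dpn it passed with FCER1G (r = 0.72, adjusted p = 0.00780, Spearman 0.55, adjusted p = 0.0844) and MARCO (r = 0.68, adjusted p = 0.0145, Spearman 0.50, adjusted p = 0.114) by Pearson's r only. Without the 2 farthest arrays these were 0.76, which passed, and 0.47, which did not (adjusted p = 0.0208 and 0.243, permutation test). At 94 dpc without array 6 its r lay between −0.24 and 0.12. MARCO had an r between −0.36 and 0.30 with all others at 188 dpn, where 9 of its 16 signals were above background.

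**Figure D5:**
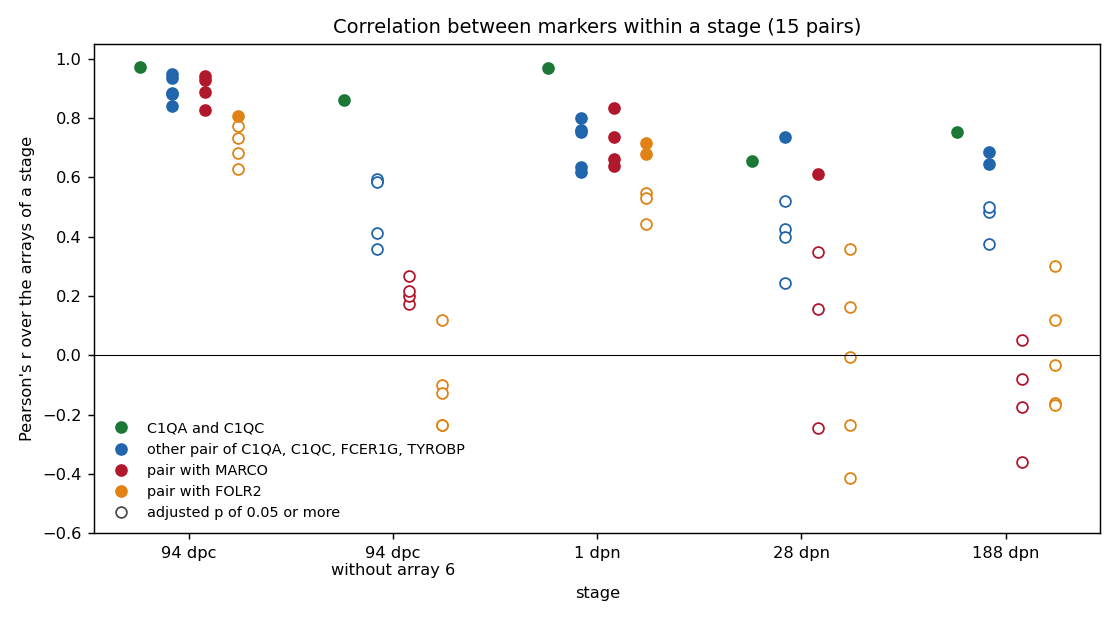
Pearson's r (y axis) of the 15 pairs of markers over the arrays of each stage and over 94 dpc without array 6 (x axis), with filled points where the permutation p adjusted over 60 relations was under 0.05. All 15 values of 94 dpc lie at 0.63 or higher with array 6 and 1 of 15 is filled without it, C1QA with C1QC is filled throughout, and pairs with FOLR2 scatter about 0 at 28 dpn and 188 dpn.

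The genes most like each marker were sought among 7364 probe-sets with a single symbol, by Pearson's r over all 63 arrays after the mean of each stage had been subtracted. These values are a description, and the points share arrays and, in part, litters. For C1QA they were C1QC (0.94), VSIG4 (0.88), GRN (0.87), CD53 (0.87) and LAPTM5 (0.86), and for C1QC they were C1QA, VSIG4 (0.91), CD53 (0.91) and GRN (0.87). FCER1G had C1QC (0.87), CDH5 (0.87), C1QA and LAPTM5 (both 0.85), and TYROBP had C1QC (0.80), FCER1G and C1QA (both 0.79), ADA2 (0.78) and LAPTM5 (0.74). Among these, CD53 is a tetraspanin of blood cells, GRN encodes the lysosomal protein progranulin, and CDH5 is an endothelial gene.

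FOLR2 had other neighbours. UPB1, an enzyme of pyrimidine breakdown, came first (0.68), followed by RAMP2, a receptor activity modifier of endothelium, ECI1, an enzyme of fatty acid oxidation, ACY1, an aminoacylase, and GABARAP (0.66 each). The other 5 markers had an r with FOLR2 between 0.39 and 0.52, and FCER1G, the highest, was in place 67. MARCO was nearest to WDR82 and C1QC (0.69 each), TMEM140 (0.67), ARL6IP5 and PDIA3 (0.66 each).

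Without array 6, over 62 arrays, C1QA and C1QC kept each other in first place (0.86), with GRN, FCGR3A, LAPTM5 and VSIG4 after C1QC for C1QA (0.71 to 0.76). FCER1G was then nearest to CYBA (0.73), a subunit of the phagocyte oxidase, and GMFG (0.72), and TYROBP to SLA-DRB1 (0.64), a class II histocompatibility gene, and RPS6KA1 (0.61). FOLR2 was nearest to SLC2A4RG (0.66), ECI1 (0.66), ALAD (0.65), an enzyme of heme synthesis, and UPB1 (0.62), and its r with the other 5 markers was 0.17 to 0.40. MARCO had no r above 0.55, its value with CPNE1, and with C1QA, C1QC, FCER1G and TYROBP it had 0.09 to 0.31.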

How the data were processed

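The authors measured liver RNA of HP offspring on 63 Affymetrix porcine arrays. The deposited values are log2 signals of 24123 probe-sets. The labels name GCOS 1.1.1, the values have a trimmed mean of 500 on the linear scale on each array, linear signals under 1 stand at 0, and no further normalization between arrays was found. The methods of the study describe GCRMA values and a mixed model with sex, mother and weight, none of which the deposited log2 values or labels hold. Stages were taken from the labels.

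The 188 control probe-sets were not used. Gene symbols were read from the platform annotation, where 10069 probe-sets have 1 symbol, 198 several and 13668 none. The probe-set with the highest mean stood for a gene. Adjacent stages, and 188 dpn against 94 dpc and 1 dpn, were compared by the moderated, two-sided test of limma 3.58.1 under R 4.3.3, for probe-sets whose signal exceeded the 50th percentile of the array in 50% or more of the animals of 1 stage. A gene that passes this filter through 1 of the stages alone is likely to be higher at that stage. The threshold was a p of 0.05 after Benjamini-Hochberg adjustment, and the procedure was tested on simulated data. Pair differences and correlations used 100000 permutations (Python 3.11.15, numpy 2.4.6, scipy 1.17.1). The members and the 17 gene lists were chosen with earlier results of these data known. Named were all 6 members, the 4 largest called changes of a list in a period where a list is given gene by gene, and the 5 nearest probe-sets of each member (fewer without array 6), of which 1 gene is not reported here. Any further gene was picked with its values in view. As alternatives the filter was dropped or set at the 75th percentile, and the others were quantile normalization, centring, 1 fit over all 63 arrays, arrayWeights, a trended eBayes prior, signals under background set to it, the 3′ minus 5′ difference of added RNAs as a covariate, a Wilcoxon test, averaging both MARCO probe-sets, other thresholds, and each array left out. Pair differences and correlations without array 6 were added after the data had been seen.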

Additional observations from a re-analysis of the deposited data

How the results depend on the processing

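In period II 5 of 6 markers were called throughout, or 6 when MARCO passed, which it did after quantile normalization (0.97), centring (0.90) and with the 3′ minus 5′ difference as a covariate (1.49). The mean of both MARCO probe-sets gave −0.18 in period II in place of 0.67. In period III 1 marker was called when a change of at least 2-fold was also asked. Centring raised every difference by 0.10 in each of periods I and III, by 0.23 in period II, and by 0.45 and 0.33 at 188 dpn against 94 dpc and 1 dpn.
In period I the number of called markers was 1 in place of 2 without a filter on level, with the filter at the 75th percentile, at an adjusted p under 0.01 and with a 2-fold change, and 0 with the covariate, whose values did not overlap between these stages. With the covariate the median of the 6 markers was −0.70, and the differences of C1QA, C1QC, FCER1G and TYROBP turned to −0.75, −1.34, −0.65 and −0.41. C1QC also turned to −0.0086 after quantile normalization, −0.20 with arrayWeights and −0.26 by the median difference of the Wilcoxon test, and FCER1G to −0.069 and −0.021 in the last 2. None of these turned differences passed the test. MARCO passed in period I with arrayWeights (−0.99), with signals under background set to it (−0.91, 3 called markers) and in the Wilcoxon test (−0.89). Leaving out 1 array gave 1 to 2 called markers in period I, 5 to 6 in period II and 6 in period III, with medians of 0.02 to 0.31, 1.97 to 2.07 and −0.75 to −0.69, and in period I −0.24 to 0.091 for C1QC and −0.12 to 0.16 for FCER1G.
Of 60 correlations 29 passed, 19 without array 6 and 10 without the 2 farthest arrays. Of 45 pair differences 36 passed, and 33 to 37 under the alternatives. The filter at the 75th percentile left MARCO untested in every comparison and TYROBP in period I. TYROBP in period III lost its call in a single fit over all arrays and after centring. The Wilcoxon test, arrayWeights and dropping the filter ended its call in period I. No paired analysis was possible because the running numbers of the arrays are unique and the labels name no litter or pair. MARCO at 188 dpn and its second probe-set were limited by background.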
